A study of Mus musculus with 6 samples.

Results

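Of the 33012 probes on the array, 194 gave a signal on every array of 1 weight-gain group and on no array of the other. They were selected on those values alone: 76 probes had values on all 3 high-gainer arrays and were blank on all 3 low-gainer arrays, and 118 had the opposite pattern. Because the selection used the contrast between the groups, the signals of these probes are described without a fold change or a test. Of the 76 high-gainer probes, 40 carried 1 gene symbol and 36 carried none. Of the 118 low-gainer probes, 39 carried 1 symbol, 1 carried several and 78 carried none. These named 79 genes, each through 1 such probe, and no gene was in both directions.

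The study asked why genetically identical mice on the same diet gain different amounts of fat. Both groups were male C57BL/6J mice, housed singly before the diet began and fed the high saturated fat diet D12331 for 4 weeks from 8 weeks of age. The high gainers had gained much weight over that time and the low gainers little. Inguinal fat RNA of 8 mice was combined into 1 pool for each group, and each of the 2 pools was hybridized to 3 one-color arrays (H1 to H3 and L1 to L3). The 3 arrays of a pool repeat the same RNA, so that every p-value below measures technical spread and says nothing of variation among mice.

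Inguinal fat is a subcutaneous depot in which fat cells share the pad with blood vessels, stromal cells and resident immune cells. The pad also surrounds a lymph node, can carry the rudiment of a mammary gland and lies against the muscle of the body wall. Each of these can bring RNA of its own into a dissected sample. Which of them these samples held was not tested. In a bulk sample, fewer cells of a type and less RNA in each cell cannot be told apart. The tissue was recognizable by its own markers: all 20 adipocyte genes with a named probe had values on all 6 arrays, among them Fabp4, the fatty acid carrier of fat cells, Plin1, which coats the lipid droplet, and Lep, the hormone leptin.

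A blank was common on these arrays. They held values for 18018 (H3) to 20605 (H1) probes, 15821 probes had a value on all 6 arrays, and 9217 had none on any. Arrays of the same pool correlated at r = 0.988 to 0.994 across those 15821 probes and arrays of different pools at 0.972 to 0.980. The 76 high-gainer probes were 0.455% of the 16686 probes with values on all 3 high-gainer arrays, and the 40 named ones were 0.433% of the 9245 with 1 symbol. The 118 low-gainer probes were 0.692% of 17051, and the 39 named ones were 0.417% of 9359. These shares restate the selection. The counts depended on which arrays were asked. Without H3, the array with the fewest values, 281 probes met the high-gainer rule, and without H1, the array with the most, 299 met the low-gainer rule. The other single-array omissions gave 94 to 191 and 157 to 253. Leaving out an array drops a condition of the rule, so that these counts can only stay at 76 and 118 or rise. Of the 1127 probes with a value on exactly 3 arrays, 194 had all 3 in the same pool and 933 had them spread over both. Most ways of placing 3 values on 6 arrays span both pools, so these counts cannot be compared directly.

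Ordered by the lowest of the 3 percentile ranks, the leading named probe of the low gainers was that of Ccr9, a chemokine receptor that guides lymphocytes to the gut. In the high gainers it was that of Slc12a7, a potassium-chloride cotransporter. The 250 bases before the RefSeq start of 4 of the genes described here are printed to show the control regions that stand behind the leading low-gainer gene (Ccr9), the secreted epithelial protein (Wfdc2), the muscle regulator (Myog) and the leading high-gainer gene (Slc12a7). They are from RefSeq on GRCm38.p6, and all 4 lie on the plus strand. Capitals mark the GC box, GGGCGG on either strand. Ccr9 is at chr9:123766961-123767210, Wfdc2 at chr2:164562465-164562714, Myog at chr1:134289754-134290003 and Slc12a7 at chr13:73763410-73763659. For Wfdc2 and Slc12a7, the first of 2 listed starts was used.
Ccr9: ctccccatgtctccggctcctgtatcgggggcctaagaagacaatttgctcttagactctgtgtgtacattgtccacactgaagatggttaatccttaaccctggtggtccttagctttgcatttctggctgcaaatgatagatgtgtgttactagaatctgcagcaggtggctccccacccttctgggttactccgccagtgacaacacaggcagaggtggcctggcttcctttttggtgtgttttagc
Wfdc2: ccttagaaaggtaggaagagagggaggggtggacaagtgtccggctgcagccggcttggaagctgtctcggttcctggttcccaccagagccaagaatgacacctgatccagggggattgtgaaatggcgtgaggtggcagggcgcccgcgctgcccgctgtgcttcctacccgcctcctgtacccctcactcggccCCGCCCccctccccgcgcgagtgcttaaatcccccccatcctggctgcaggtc
Myog: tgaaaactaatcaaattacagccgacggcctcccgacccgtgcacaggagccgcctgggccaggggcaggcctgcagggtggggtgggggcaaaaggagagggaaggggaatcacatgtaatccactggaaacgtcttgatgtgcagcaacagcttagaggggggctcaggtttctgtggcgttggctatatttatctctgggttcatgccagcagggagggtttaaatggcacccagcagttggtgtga
Slc12a7: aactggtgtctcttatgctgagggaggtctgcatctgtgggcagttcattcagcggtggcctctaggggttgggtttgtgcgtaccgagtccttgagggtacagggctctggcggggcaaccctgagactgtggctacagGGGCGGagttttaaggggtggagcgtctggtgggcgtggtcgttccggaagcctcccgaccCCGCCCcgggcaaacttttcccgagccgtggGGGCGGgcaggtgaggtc
The Slc12a7 stretch held 3 GC boxes, whose leftmost bases were at -110, -49 and -18 from the start. The 250 bases before its other listed start, at chr13:73763447-73763696, held 6. The Wfdc2 stretch held 1, at -53. Those of Ccr9 and Myog held none. None of the 4 held the letters TATAAA, the E-box form CAGCTG or the ETS core form GGAAGT, each searched on both strands. Other forms of the E-box and of the ETS core were not searched, so their absence is not shown. A promoter was listed for 31 of the 40 high-gainer genes and 29 of the 39 low-gainer genes. A GC box was found in 41.9% of the former, 44.8% of the latter and 32.9% of all 27025 promoters, and TATAAA in 16.1%, 10.3% and 13.0%. These are descriptions of letters and not of binding.

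Receptors of lymphocytes and other blood cells are described first among the named low-gainer genes. Ccr9 read 6582, 4586 and 4606 on L1, L2 and L3 and was blank on H1 to H3. Tnfrsf4, the costimulatory receptor OX40 of activated T cells, read 3502, 4714 and 2829. Il5ra, the receptor through which eosinophils and some B cells respond to interleukin 5, read 2214, 2286 and 2765. All 3 were among the 20 named low-gainer probes with the highest ranks. Tnfrsf13b, the receptor TACI of B cells, was dimmer, at 1486, 1811 and 1423. Icos, a costimulatory receptor of T cells, read 931, 1349 and 685, and Icosl, which encodes its ligand, read 1601, 2109 and 1147. The receptor and its ligand thus had the same pattern, with Icos near the bottom of the signal range, at percentile ranks of 0.88 to 5.55 of the probes with a value on the array. Over all 13840 genes with a named probe, 39 had values in the low gainers alone and 40 in the high gainers alone. The interleukin, chemokine and TNF family held 137 genes with a named probe, of which 4 had values in the low gainers alone (Ccr9, Il5ra, Tnfrsf13b and Tnfrsf4) and none in the high gainers alone. The T lymphocyte list held 29 such genes, with 2 in the low gainers alone (Icos and Tnfrsf4) and 1 in the high gainers alone (Cd40lg), and the B lymphocyte list held 20, with 1 in the low gainers alone (Tnfrsf13b).

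Some regulators of blood cells were also in the low-gainer direction. Batf2, a leucine zipper factor of myeloid cells, read 2286, 2791 and 2295, and Gfi1, a zinc finger repressor of lymphoid and myeloid development, read 2496, 2279 and 2124. Rel, the NF-kappaB subunit c-Rel of lymphocytes, read 1431, 2222 and 857. Innate sensors were present as well. Tlr12, a toll-like receptor for profilin of parasites, read 1882, 2284 and 1939, Mefv, which encodes pyrin, read 2744, 2410 and 4392, and Klra17, a receptor of the Ly49 family, read 1821, 2347 and 1900. Each of these 6 genes was blank on H1, H2 and H3.

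Cd40lg, the ligand by which helper T cells activate B cells, had the opposite pattern. It read 909, 1085 and 1053 on H1, H2 and H3 and was blank on the low-gainer arrays. Its percentile ranks were 2.12 to 5.72, so that it was among the dimmest probes of each high-gainer array. Its receptor Cd40 had values on all 6 arrays and was 1.88-fold lower in the high gainers (5753 ± 681 against 10861 ± 1689, SD, n = 3 arrays each; limma adjusted p = 0.00621). That call was kept in 1 of the 6 fits that left out an array, in which its adjusted p reached 0.0323.

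The lymphocyte genes that were measured on every array were tested on values that the selection did not use. The marker lists were chosen with earlier results of these same arrays known, so the counts below are not independent support. Among the 15821 probes with values on all 6 arrays, limma called 396 higher in the high gainers, 2.50% of those tested, and 632 lower, 3.99%, at an adjusted p under 0.01 and a fold of at least 1.5. Of 20 B lymphocyte genes with a named probe, 17 were measured on all 6 arrays and all 17 were lower in the high gainers, with a median log2 difference of -1.58 against 0.03 over all tested probes. Without any 1 array, 16 of the 17 were called. Tnfrsf13c, the receptor for BAFF and a relative of Tnfrsf13b, was 3.49-fold lower (3422 ± 457 against 11943 ± 1641, SD, n = 3 arrays each; limma adjusted p = 0.000392). Of 29 T lymphocyte genes, 18 were measured on all 6 arrays, 15 were lower and none was higher (median log2 difference -1.48). Cd28, a costimulatory relative of Icos, was 3.14-fold lower (3630 ± 390 against 11358 ± 589, SD, n = 3 arrays each; limma adjusted p = 0.000222). Both calls were kept in all 6 fits that left out an array.

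The summed signal of a list took a single probe for each gene, with blanks adding nothing, and so included the selected probes on the list. That of the B lymphocyte list was 279471 to 286492 on the high-gainer arrays and 886842 to 891755 on the low-gainer arrays. That of the T lymphocyte list was 202552 to 225035 and 587137 to 612048. Neither pair of ranges overlapped. Markers of lymph node vessels and stroma, none of which was a selected probe, moved with them: 6 of the 11 measured on all 6 arrays were called lower by limma in the high gainers (Ccl19, Ccl21a, Ccl21b, Cxcl13, Glycam1 and Ltb), with a median log2 difference of -1.24 and a summed signal of 744171 to 778950 against 1788879 to 1848638. Of the natural killer and cytotoxic cell genes, 4 of 15 were lower (Ccl5, Klrd1, Nkg7 and Xcl1), with a median log2 difference of -0.74 and a summed signal of 184625 to 217452 against 434265 to 453023. The part of these cells in the blanks of Tnfrsf13b, Icos, Tnfrsf4, Ccr9 and Il5ra was not tested.

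**Figure D1:**
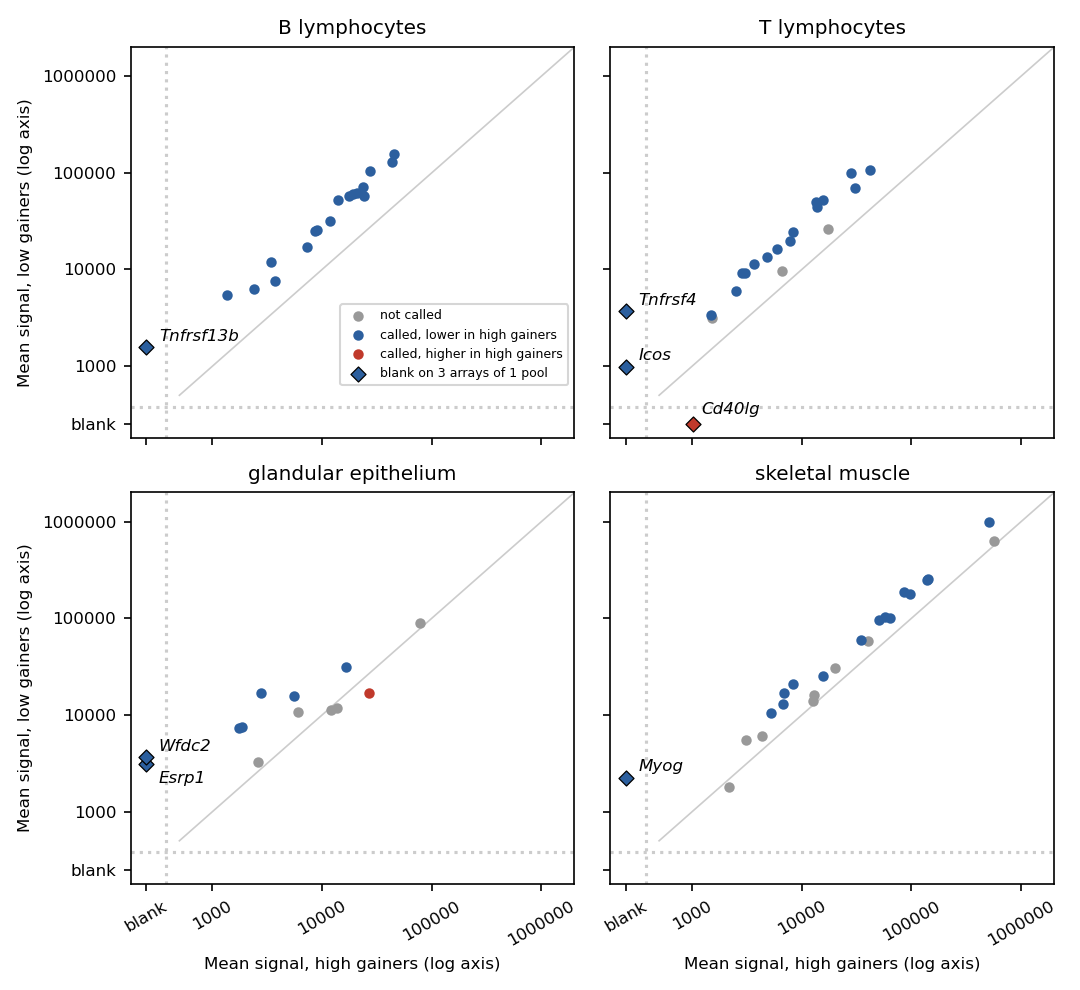
Mean signal over 3 arrays in the low gainers (vertical) against the high gainers (horizontal), both on log axes, for the genes of 4 marker lists. Circles are genes with values on all 6 arrays, blue where limma called them lower in the high gainers, red where higher and gray where not called; diamonds in the margin marked blank are genes with values on all 3 arrays of 1 pool and none in the other, and the diagonal marks equal signal. All 17 measured B lymphocyte genes lie above the diagonal, and Cd40lg is the only diamond on the high-gainer side.

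Genes known from epithelia, of which 2 (Wfdc2 and Esrp1) were on the glandular epithelium list and the others were grouped after their values were seen, are described next among the low-gainer probes. Wfdc2, a secreted protein of glandular epithelia, read 4023, 3702 and 3255. Esrp1, the splicing regulator of epithelial cells, read 3920, 2725 and 2617, and Marveld2, which encodes tricellulin of tight junctions where 3 cells meet, read 3474, 3016 and 3301. These 3 were among the brightest named low-gainer probes. Ildr1, which is also placed at tricellular junctions, was dimmer, at 1424, 1106 and 1058. Dsg2, a desmosomal cadherin, read 2064, 980 and 1205, and Kdf1, a factor of epidermal differentiation, read 1555, 1299 and 921. Galnt6, an enzyme that starts mucin-type glycosylation, read 1886, 2004 and 3090. Rnf43, a ubiquitin ligase that removes Wnt receptors from the cell surface, read 3516, 3819 and 2116, and Ctse, the aspartic protease cathepsin E, read 3403, 3138 and 2902.

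Of 35 glandular epithelium genes with a named probe, 2 had values in the low gainers alone (Esrp1 and Wfdc2), none in the high gainers alone, and 7 were blank on all 6 arrays, among them the milk protein genes Csn1s1, Csn1s2a and Lalba. The list was therefore measured only in part: 11 genes had values on all 6 arrays, and 15 on some of them. Of the 11, 5 were lower in the high gainers (Cdh1, Krt7, Krt8, Krt18 and Spint2), 1 was higher (Dmkn) and 5 did not pass, with a median log2 difference of -0.87. The shares over all tested probes were 3.99% lower and 2.50% higher. Krt18, a keratin of simple epithelia, was 6.26-fold lower (2786 ± 814 against 16978 ± 699, SD, n = 3 arrays each; limma adjusted p = 0.000312). Cdh1, which encodes E-cadherin, was 4.19-fold lower (1730 ± 201 against 7265 ± 962, SD, n = 3 arrays each; limma adjusted p = 0.000222). Cdh1, Krt7, Krt8 and Krt18 kept their calls in all 6 fits that left out an array, Spint2 in 3 and Dmkn in none. The summed signal of the list was 155626 to 198738 in the high gainers and 262252 to 287756 in the low gainers. This sum included Wfdc2 and Esrp1, with blanks adding nothing. The part of the glandular list in the blanks of Wfdc2 and Esrp1 was not tested. The stratified epithelium and skin list gave no limma call among its 5 testable genes (median log2 difference -0.05). Its summed signal was 28404 to 38654 in the high gainers and 47013 to 56274 in the low gainers. Lsr, a relative of Ildr1, was not called (20345 ± 311 against 22888 ± 278, SD, n = 3 arrays each). Nor was Jup, a partner of Dsg2 (7889 ± 1255 against 6200 ± 1226). Esrp2, a relative of Esrp1, had values on 1 high-gainer and 3 low-gainer arrays.

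Other roles among the low-gainer genes were represented by single members. Myog, the transcription factor myogenin of differentiating muscle, read 1579, 2984 and 2173. Exo1, an exonuclease of DNA repair, read 2058, 1982 and 1596. Gast, which encodes the stomach hormone gastrin, read 905, 1676 and 1506, and Insm1, a factor of neuroendocrine cells, read 2993, 1485 and 2883. Coch, a secreted protein of the inner ear and of lymphoid stroma, read 4075, 2301 and 1725. Zbtb5, a zinc finger protein, read 2299, 2619 and 2096, and Vill, a relative of villin, read 1902, 2262 and 2150. Klk1b24, a kallikrein, read 1625, 1733 and 1709.

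Myog had related genes on the array with mixed patterns. Myod1 had values on 3 high-gainer and 2 low-gainer arrays, Myf6 on 1 and 3, and Myf5 on none. Of 41 skeletal muscle genes with a named probe, 22 had values on all 6 arrays, 14 of these were lower in the high gainers and none was higher (median log2 difference -0.85). The shares over all tested probes were 3.99% lower and 2.50% higher. Those 14 encode contractile and metabolic proteins of mature fibers, such as Tnnt3 (2.24-fold lower, 84602 ± 5177 against 189104 ± 7518, SD, n = 3 arrays each; limma adjusted p = 0.000392). The count was 6 without H1, 8 without H2, 7 without L3 and 9 to 10 without any other array, and it was 7 with the array number as a block. The summed signal of the list was 1872149 to 1946686 in the high gainers and 2930100 to 3331550 in the low gainers. This sum included Myog, with blanks adding nothing. The part of the list in the blank of Myog was not tested. For Exo1, 28 of the 40 cell cycle genes were measured on all 6 arrays. Of these, 1, Cdt1, was called lower, beside 3.99% of all tested probes. Cdt1 was called in none of the fits that left out an array.

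**Figure D2:**
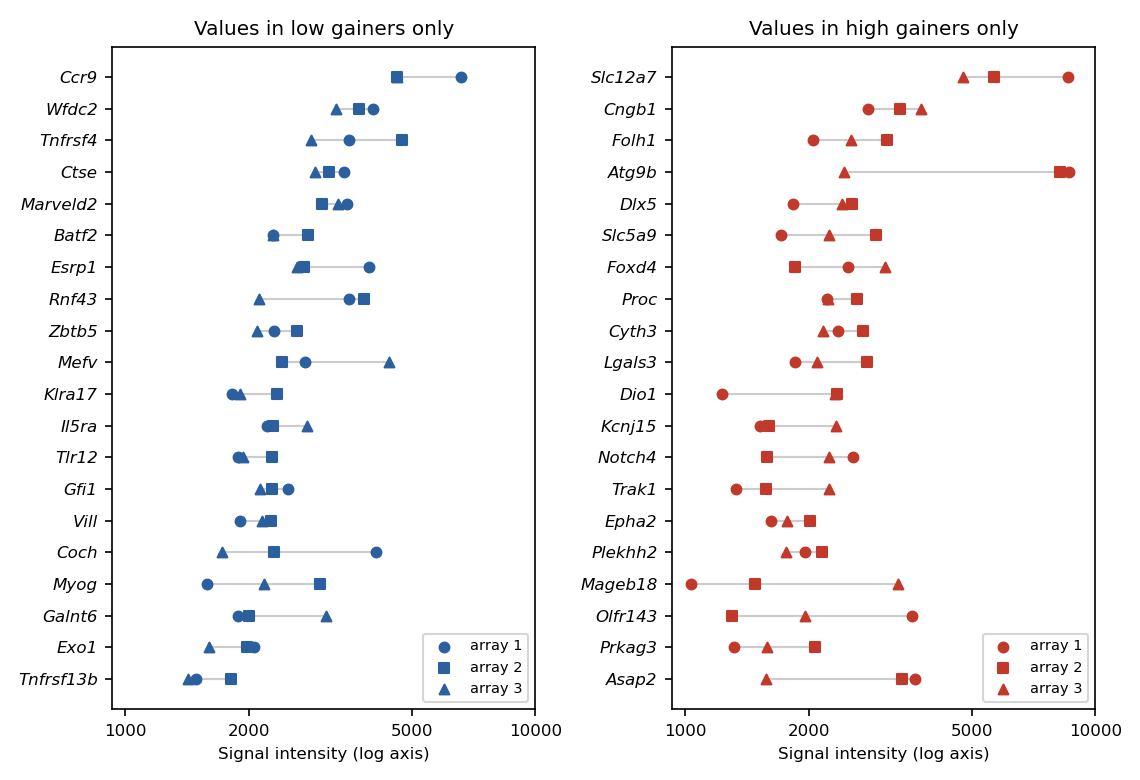
Signal intensity (log axis) on each of the 3 arrays for the 20 named probes in each direction whose lowest percentile rank was highest, with circles, squares and triangles for arrays 1, 2 and 3 and a gray line for their range. Ccr9 and Slc12a7 lead, and Atg9b shows the wide spread of some probes, with 8610 and 8208 on arrays 1 and 2 and 2446 on array 3.

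Transporters and channels are described first among the 40 named high-gainer genes, out of 13840 genes with a named probe. Slc12a7 read 8584, 5678 and 4769 on H1, H2 and H3 and was blank on L1 to L3. Slc5a9, a sodium-dependent sugar transporter, read 1715, 2923 and 2244. These were 2 of the 302 solute carrier genes with a named probe, of which 154 had values on all 6 arrays, with 5 called higher and 5 lower. Over all tested probes, limma called 2.50% higher and 3.99% lower. Cngb1, a subunit of the cyclic nucleotide-gated channel of rod photoreceptors, read 2791, 3339 and 3752, and Cnga2, its relative in olfactory neurons, read 2140, 1344 and 1233. Kcnj15, an inward rectifier potassium channel, read 1524, 1603 and 2333, and Grik2, a kainate receptor subunit, read 796, 389 and 714. These were 4 of 158 ion channel genes, of which 60 were blank on all 6 arrays. Cngb1 was the brightest of the 4 and Grik2 the dimmest, at percentile ranks of 0.07 to 3.88. No ion channel or solute carrier gene was in the low-gainer direction.

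Enzymes and metabolic genes followed. Dio1, a deiodinase that activates thyroid hormone, read 1231, 2343 and 2323. Its relative Dio2 had values on all 6 arrays and was not called (3326 ± 689 in the high gainers and 4920 ± 348 in the low gainers, SD, n = 3 arrays each; limma adjusted p = 0.0430), and Dio3 was blank on all. Folh1, a folate hydrolase, read 2055, 3103 and 2531, and Prkag3, a regulatory subunit of AMP-activated kinase, read 1315, 2070 and 1584. Gfpt1, the entry enzyme of hexosamine synthesis, was dimmer, at 502, 919 and 655. Fads6, named as a fatty acid desaturase, read 924, 1102 and 949 and was 1 of 52 genes of the lipid list. Of these, 38 were measured on all 6 arrays, with 4 called higher and 2 lower, beside 2.50% and 3.99% of all tested probes. Cyp2d34, a cytochrome P450, read 1240, 1168 and 953.

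The next high-gainer genes, grouped after their values were seen, are known from coagulation, vessels and development. Proc, the precursor of the anticoagulant protein C, read 2221, 2618 and 2225. Its partner Thbd, thrombomodulin, was measured on all 6 arrays and was 1.52-fold higher in the high gainers (limma adjusted p = 0.00849), close to the fold threshold, and kept that call in 1 of 6 fits that left out an array. Procr, the protein C receptor, did not pass (16605 ± 673 against 11138 ± 1610, SD, n = 3 arrays each; limma adjusted p = 0.0180). Notch4, a Notch receptor of endothelium, read 2559, 1580 and 2243, and Epha2, a receptor for ephrins, read 1623, 2011 and 1776. The related receptor Notch3, the Notch ligand Dll4 and the Epha2 ligand Efna1 had values on all 6 arrays and were not called, nor was any of the 18 genes of the endothelium and mural cell list measured on all 6 arrays. Dlx5, a homeobox factor of bone formation, read 1832, 2554 and 2412, and Foxd4, a forkhead factor, read 2492, 1853 and 3067. Lgals3, the galactose-binding lectin galectin-3, read 1852, 2776 and 2096. Mmp10, the matrix protease stromelysin-2, read 1676, 709 and 608, and was 1 of 76 extracellular matrix genes. Of these, 37 were measured on all 6 arrays, with 5 called higher and none lower, beside 2.50% and 3.99% of all tested probes. Fgfr4, a receptor for fibroblast growth factors, read 670, 473 and 1500. Mmp10 and Fgfr4 both lay below the 1st percentile on at least 1 array. The rest of the 20 highest-ranked named high-gainer probes were not placed in a group. Cyth3 read 2354, 2721 and 2170, Trak1 1329, 1576 and 2241, and Plekhh2 1957, 2158 and 1766. Mageb18 read 1033, 1479 and 3311, and Asap2 read 3627, 3377 and 1573.

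Odorant and pheromone receptors, whose known site of expression is the nose, were found in both directions. Olfr143, Olfr432 and Vmn1r80 had values in the high gainers alone, and Olfr624 and Vmn1r54 in the low gainers alone. They were 5 of 867 such genes with a named probe, of which 476 were blank on all 6 arrays and 98 had values on all 6. Over all 13840 genes with a named probe, 40 were in the high-gainer and 39 in the low-gainer direction. Arrays of the same RNA differed widely for some of them: Olfr143 read 3573, 1301 and 1965 on H1, H2 and H3, and Olfr432 read 1172, 848 and 3406.

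In all, 8 low-gainer and 3 high-gainer genes were on one of the 26 lists named by cell type or pathway, and 18 of these lists held none, including the lists of adipocytes, endothelium, macrophages and Wnt signaling. With so few selected among 13840 genes with a named probe, an empty list says little of its cell type or pathway. All 20 genes of the adipocyte list had values on all 6 arrays. The 40 high-gainer genes lay on 18 chromosomes and the 39 low-gainer genes on 16. The closest neighbors in a direction were Gprasp1 and Tceal5, with 9 genes between them, and Scin and Coch, with 15.

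The selected probes were dim where they had a signal. Ranked among all probes with a value on the same array, the 76 high-gainer probes had a median mean percentile of 11.5 (range 0.905 to 39.6), with array medians of 12.4, 9.72 and 9.24 on H1, H2 and H3. The 118 low-gainer probes had a median of 13.3 (range 2.29 to 53.4), with array medians of 14.4, 12.6 and 12.8 on L1, L2 and L3. The probes with values on all 6 arrays had medians of 58.6 and 58.8 in the same pools. A mean rank below the 25th percentile was found for 69 of the 76 and 97 of the 118. Signals ranged from 293 to 8610 in the high-gainer direction and from 521 to 13767 in the low-gainer direction. The brightest probe of all had no gene symbol and read 13767, 10590 and 10866 on L1, L2 and L3, and it was the 1 probe with a mean rank above the 50th percentile. The named probes with the lowest mean rank were Gfpt1 in the high gainers (502, 919 and 655) and Olfr624 in the low gainers (787, 784 and 1124).

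The spread between repeat arrays was wider than on bright probes. The median coefficient of variation of the selected probes over 3 arrays was 25.7% in the high-gainer direction and 21.3% in the low-gainer direction, against 9.12% and 10.4% for the probes with values on all 6 arrays, which were brighter. At matched rank the difference was smaller, and the selected probes had the higher median in most rank bins but not in all. Below the 5th percentile the median was 22.9% for the high-gainer probes against 30.02% for the other probes with values on all 3 high-gainer arrays, and 26.4% against 17.6% in the low gainers. Between the 10th and 15th percentiles it was 29.5% against 22.5% and 19.2% against 20.3%. In every other rank bin that held selected probes, their median was the higher. Between the 20th and 25th percentiles it was 29.8% against 17.4% in the high gainers and 18.5% against 18.1% in the low gainers. Atg9b, a relative of the autophagy protein Atg9a, read 8610 and 8208 on H1 and H2 but 2446 on H3.

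Blanks followed the rank both within a pool and between pools. Of the probes with values on all 3 arrays of a pool and a mean rank below the 5th percentile, 12 of 80 high-gainer probes (15%) and 16 of 106 low-gainer probes (15.1%) had no value in the other pool. Between the 20th and 25th percentiles the shares were 0.495% and 1.39%, and between the 40th and 50th they were 0. The frequency of blanks between 2 arrays of the same pool gives a technical background. A probe ranked below the 5th percentile on an array was blank on another array of the same pool in a median of 60.7% of cases (12 ordered pairs of arrays, range 34.6% to 83.4%) and on an array of the other pool in 61.0% (18 pairs, 40.7% to 80.4%). Between the 10th and 15th percentiles the medians were 24.6% and 30.1%, and between the 20th and 25th they were 8.18% and 12.6%. Above the 50th they were 0.0690% and 0.0949%. The median of the other-pool pairs was the higher in every rank bin. The ranges of the same-pool and other-pool pairs overlapped at every rank, and the pairs share arrays, so that no test was made.

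**Figure D3:**
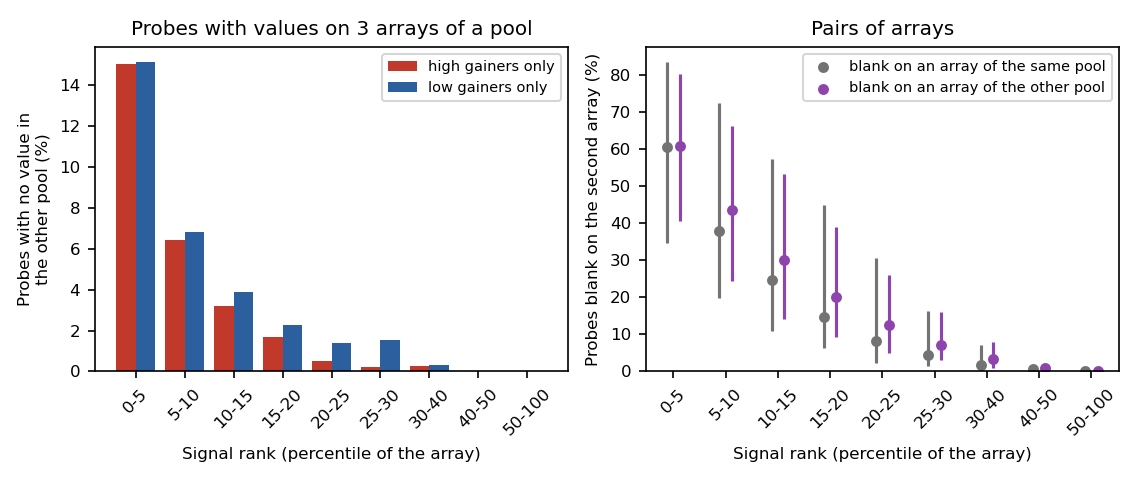
Left, percent of the probes with values on all 3 arrays of a pool that were blank on all 3 arrays of the other, by mean percentile rank of the signal, for the high-gainer (red) and low-gainer (blue) direction. Right, percent of the probes at a rank on an array that were blank on a second array of the same pool (gray, 12 pairs) or of the other pool (purple, 18 pairs), with points at the median and lines from the lowest to the highest pair. Both shares are highest in the lowest bin, at 15% and 15.1% on the left and medians of 60.7% and 61.0% on the right, and are near 0 in the upper part of the array.

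A further probe was available for 5 of the 79 genes. Atg9b had another probe with values on all 6 arrays, at 8720 ± 2665 in the high gainers and 9997 ± 1682 in the low gainers (SD, n = 3 arrays each). The other probe of Epha2 read 1991 ± 416 and 1754 ± 241, and that of Gprasp1, which encodes a receptor-sorting protein, 3110 ± 364 and 2443 ± 405. Rrp7a, a ribosome assembly factor among the low-gainer genes, had another probe at 14137 ± 1007 and 13713 ± 2076. None of these 4 further probes was called by limma. For these 4 genes a different probe of the same symbol therefore had values in both pools. Wfdc2 differed from them: its other probe was blank on all 3 high-gainer arrays and on L2, and read 1656 on L1 and 2104 on L3.

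**Figure D4:**
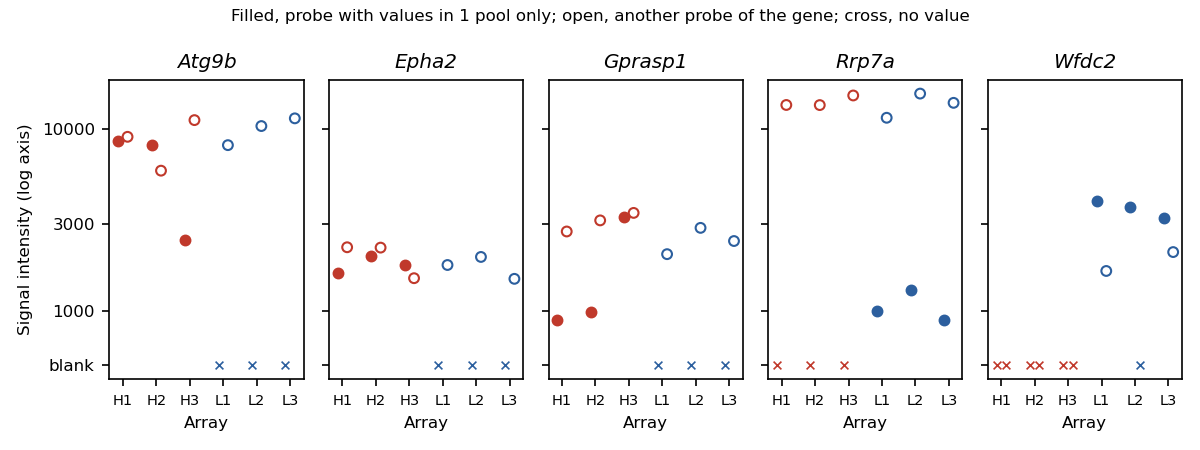
Signal intensity (log axis) on the 6 arrays for the 5 genes with a second probe, red for high and blue for low gainers, with the probe seen in 1 pool only as filled circles, the other probe as open circles and blanks as crosses. The open circles of Atg9b, Epha2, Gprasp1 and Rrp7a are present in both pools, and those of Wfdc2 only on L1 and L3.

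The probes just outside the rule were more numerous than those inside it. A value on 1 array of the other pool kept out 215 high-gainer probes, 88 of them with 1 symbol, and 279 low-gainer probes, 101 of them with 1 symbol. Epcam, an adhesion molecule of epithelia, was the brightest of these in the low-gainer direction, at 14220, 12152 and 11672 on L1 to L3 and 1001 on H2 alone of the high-gainer arrays. Krt5, a keratin of basal epithelia, read 9689, 4689 and 6281 with 856 on H1, and Lcn4, a lipocalin, read 5738, 7438 and 6739 with 1015 on H1. For these genes the single high-gainer value was far below the low-gainer values. For Mterf1a, a mitochondrial transcription factor, it was only slightly below, at 7938 on H1 against 8140, 11220 and 8343. In the high-gainer direction, Camp, the antimicrobial peptide cathelicidin, read 4600, 5535 and 5919 with 2107 on L1, and Ccn3, a matricellular protein, read 3223, 6450 and 3669 with 1518 on L3. Chrne, a subunit of the muscle acetylcholine receptor, read 6180, 3285 and 3934 with 3843 on L1, within the range of its high-gainer values. A value on only 2 arrays of the pool kept out 336 and 283 further probes. Il5, which encodes the ligand of Il5ra, was 1 of the latter, with 9170 on L2 and 12538 on L3 and no value on L1 or in the high gainers.

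**Figure D5:**
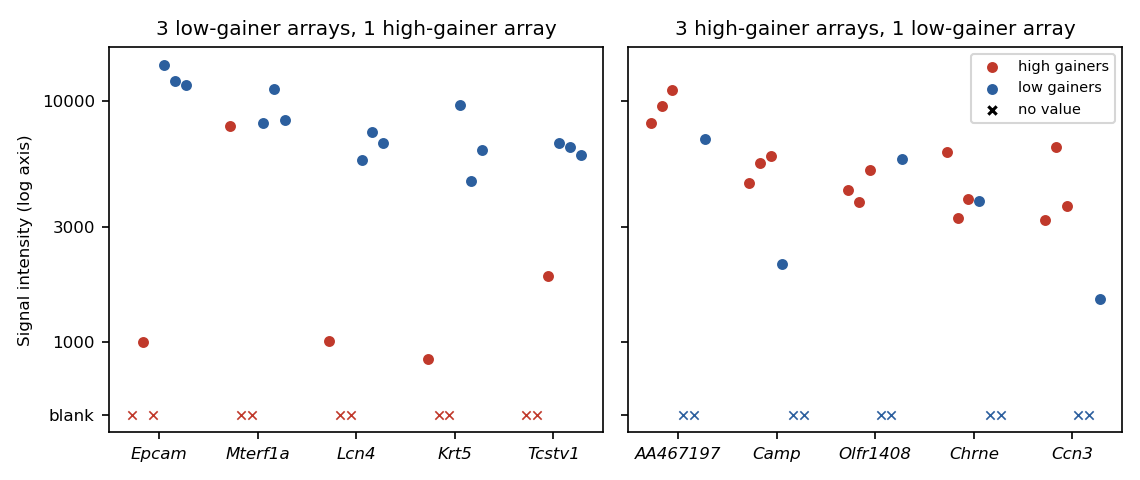
Signal intensity (log axis) on the 6 arrays for the 5 brightest named probes in each direction that had values on 3 arrays of 1 pool and on 1 array of the other, red for high and blue for low gainers, with blanks as crosses. The lone value of the other pool lies below the rest for 8 of the 10 probes, far below for Epcam, Lcn4, Krt5 and Tcstv1 and slightly below for Mterf1a, while that of Chrne lies among the rest and that of Olfr1408 above them.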

How the data were processed

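The authors combined inguinal fat RNA of 8 mice into each pool, labeled 1 μg, hybridized it to 3 one-color arrays a pool and normalized the signals by the quantile method. The deposited intensities are linear, and cells without a value are blank. In the methods, a feature is called detected from its signal to noise and a quality flag. The link between this filter and the blanks was not given in the sources used here. Between 18018 and 20605 values were held by an array, and the number of arrays limits the precision.

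Probes were selected on a value on all 3 arrays of a pool and none on the other 3. Ranks are percentiles among the probes with a value on the same array, with ties sharing their mean. The text names, in each direction, the 20 probes with 1 symbol whose lowest rank was highest, members of the gene lists, and genes with a further probe seen in the other pool. The dimmer genes named beyond these, the receptor and ligand partners and the grouping by role were chosen after their values were seen. The probes and lists were chosen with earlier results of these data known. Symbols came from a probe annotation (14411 probes with 1 symbol, 247 with several, 18354 with none) and were updated for 14402 probes with RefSeq GRCm38.p6. Families fixed by symbol required a digit after the prefix Cd, because of names such as Cdh1.

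The 15821 probes with values on all 6 arrays were log2 transformed and fitted across all of them with limma 3.58.1 (lmFit and eBayes, Benjamini-Hochberg adjustment) in R 4.3.3. A gene of a list was represented by its probe of highest mean. The procedure was tested on simulated data. Values were handled with Python 3.11.15, pandas 2.3.3 and numpy 2.4.6. Alternatives were other selection rules and rank references, other normalizations and filters, the ANOVA of the methods, the array number as a block and leaving out each array. Deviations of same-numbered arrays from their pool means correlated at 0.04, -0.11 and 0.27, so the number was not taken to pair them.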

Additional observations from a re-analysis of the deposited data

How the results depend on the processing

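The selection was sensitive to its rule. Asking for values on at least 2 arrays of a pool gave 412 high-gainer and 401 low-gainer probes, and allowing 1 value in the other pool gave 291 and 397. A lowest rank above the 25th percentile left 4 and 9, and above the 50th left 0 and 0. Counted as genes, 40 and 39 were found, of which 37 and 38 had no probe with a value in the other pool. Without 1 array, the counts were 94 to 281 and 157 to 299, and this omission cannot lower them because it drops a condition of the rule. The median rank of 11.5 in the high gainers became 4.40 among probes with values on all 3 arrays, 3.56 by mean signal and 9.66 to 12.4 without 1 array, and that of 13.3 in the low gainers became 6.04, 5.09 and 12.7 to 13.9.

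The limma counts of 396 higher and 632 lower were 105 to 319 and 368 to 493 without 1 array. The ANOVA of the methods, at an unadjusted p of 0.01 and a fold of 1.5, gave 474 and 679. The same ANOVA after Benjamini-Hochberg adjustment, chosen after seeing the data, gave 46 and 111. Limma with an intensity trend and robust estimation gave 491 and 722. With the array number as a block, limma gave 173 and 446. The member counts come from no test, so no block applies to them. The list counts were recomputed under the same settings, a choice also made after seeing the data. The glandular epithelium count fell to 3 without the dimmest probes. Between the 10th and 15th percentiles, where the median ranks of both directions lay, a second array of the same pool was blank in a median of 24.6% of cases. This share is for 1 array and not for all 3 arrays of a pool. A blank does not by itself show that a transcript was absent. The cause of the changes in the counts was not tested, nor was that of the blanks.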
